A study of Rattus norvegicus with 6 samples.

Results

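The genes followed here are the resident chaperones and folding enzymes of the endoplasmic reticulum (ER), the stress sensors of that organelle and the machinery that exports misfolded proteins for degradation. They were chosen as 40 genes with a known function in folding, quality control or degradation, of which 38 could be read, out of 14217 genes named on the array. A gene was read where at least 1 probe set carried its symbol and no other, and the 38 genes had 54 such probe sets. Ern1, the gene of the stress sensor IRE1, and Derl3, a derlin, matched no such probe set and are not analysed here. The values are log2 expression values from 6 Affymetrix 3' expression arrays of LN4D6, a cell line from a rat mammary tumour. The 3 untransfected samples were set against 3 samples of the same line transfected with CREB3L1, and the labels give both groups the same growth protocol. Nothing in the labels tells whether the transfected cells were a clone or a pool, which promoter drove CREB3L1 or which species the construct came from. Because the control cells were untransfected, an effect of CREB3L1 and an effect of transfection cannot be told apart. In such bulk RNA, fewer cells that express a gene and less of its RNA per cell cannot be told apart either.

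Proteins that enter the secretory pathway fold in the ER with the help of the Hsp70 chaperone BiP (encoded by Hspa5), the Hsp90 chaperone GRP94 (Hsp90b1), the sugar-binding chaperones calnexin and calreticulin, and enzymes that form and rearrange disulfide bonds. Proteins that fail to fold are passed through the membrane and degraded by the proteasome, a route called ER-associated degradation. When unfolded proteins accumulate, the sensors IRE1, PERK and ATF6 start the unfolded protein response, which raises the transcription of many of these genes. CREB3L1, also known as OASIS, is a relative of ATF6 that is likewise anchored in the ER membrane and cut free to enter the nucleus. The comparison therefore shows how the folding machinery stood in cells given CREB3L1.

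Each difference below is a log2 value, CREB3L1 minus untransfected, followed by ± its standard error. Tests were made with limma over 31042 probe sets, with p-values adjusted by the Benjamini-Hochberg method. Levels are means ± SD with n = 3 per group, and 95% intervals hold for 1 gene at a time. The probe set of highest average value stands for its gene and is called the representative. A log2 value below 5 was treated as background, the same level in both groups.

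The array of CREB3L1 replicate 3 stood apart from the others. Its 3' control probe set for Gapdh exceeded the 5' one by 4.77, whereas on the other 5 arrays the gap was between -0.16 and -0.10. For beta-actin the gap was 7.44 on that array and 2.35 to 3.41 on the others, with 3.41 on untransfected replicate 3. Values are therefore given with all 6 arrays and without CREB3L1 replicate 3. The part of array quality in a result was not tested. Rat Creb3l1 itself lay below background in both groups (3.36 ± 0.02 and 3.39 ± 0.03), and with no probe set known to match the construct, the transfection itself was not checked by these arrays. Of 8 luminal epithelial markers only Krt8 (13.24 ± 0.07 in untransfected cells) was above background, while Krt5, Krt14 and Acta2 among 5 measured basal markers were. All 16 measured fibroblast, endothelial, leukocyte and adipocyte markers were below background in both groups, and no marker of any class passed the test.

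The promoters of some of these genes carry DNA elements through which the unfolded protein response acts. The elements are shown because genes with differences of opposite sign both have them. Promoter windows of 300 bases, 250 before the start site and 50 after it, were taken from RefSeq (build GRCr8) for 32 of the 38 genes. They were searched on both strands for the ER stress response element, which is CCAAT and CCACG with any 9 bases between them, and its variant, which is ATTGG and CCACG with any 1 base between them. The matches of these do not overlap each other in these promoters. At least 1 of them was found in 11 of the 32 promoters (34.4%), against 36 of 27457 promoters of all genes (0.131%). The genes were chosen for their function and the variant was added after the data were seen, so these shares describe the promoters and test nothing. In the elements below the capitals mark the fixed bases, and each is read in the direction of the motif.

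Hspa5 element, chr3:38452973-38452991: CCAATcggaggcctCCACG
Hsp90b1 distal element, chr7:23012451-23012469: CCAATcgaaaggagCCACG
Hsp90b1 proximal element, chr7:23012347-23012365: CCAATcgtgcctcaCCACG
Calr element, chr19:40213135-40213153: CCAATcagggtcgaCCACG
Canx element, chr10:35158069-35158087: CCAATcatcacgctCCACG
Creld2 element, chr7:121789239-121789257: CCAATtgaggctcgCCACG
Dnajc3 element, chr15:102432534-102432552: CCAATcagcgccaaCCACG
Xbp1 element, chr14:84604558-84604576: CCAATcgcagacggCCACG
Dnajb11 variant element, chr11:91672800-91672810: ATTGGcCCACG
Herpud1 variant element, chr19:10614821-10614831: ATTGGgCCACG

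The remaining promoters with an element were those of Ero1b and Hyou1, both below background on these arrays. Dnajc3, which was higher in CREB3L1 cells, and Herpud1, which was lower, are shown with the full 250 bases before the start site, on the strand of the gene. The Dnajc3 stretch is on the plus strand at chr15:102432417-102432666 and the Herpud1 stretch on the minus strand at chr19:10614708-10614957, and capitals mark the fixed bases of the element.

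Dnajc3: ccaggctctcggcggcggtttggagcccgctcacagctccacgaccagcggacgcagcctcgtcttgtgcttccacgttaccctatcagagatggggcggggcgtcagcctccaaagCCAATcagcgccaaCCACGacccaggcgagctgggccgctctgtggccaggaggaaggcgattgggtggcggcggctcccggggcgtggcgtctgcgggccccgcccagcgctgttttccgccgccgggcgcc
Herpud1: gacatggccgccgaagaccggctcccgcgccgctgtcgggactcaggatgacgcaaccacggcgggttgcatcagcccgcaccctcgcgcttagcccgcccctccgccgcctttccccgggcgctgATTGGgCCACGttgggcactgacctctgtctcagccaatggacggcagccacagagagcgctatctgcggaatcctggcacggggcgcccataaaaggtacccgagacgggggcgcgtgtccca

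The element begins at position -133 from the Dnajc3 start site and at position -124 from that of Herpud1. The unfolded protein response element TGACGTGG was found in 3 of the 32 promoters (Dnajc10, Hyou1 and Vcp; 9.38%, against 0.637% of all promoters). In the Hyou1 promoter it overlaps 1 of that gene's matches to the variant element. The cyclic AMP response element TGACGTCA was found among these promoters only in that of Ppp1r15a, at position -66 (3.12%, against 1.91% of all promoters). A match describes the letters and does not show that a factor bound there.

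With all 6 arrays, 1 of the 38 genes rose and 1 fell. Across all genes named on the array, 0.577% were called higher and 1.52% lower. Selenos rose and Herpud1 fell, and both belong to ER-associated degradation. Without CREB3L1 replicate 3, 3 genes passed the test as higher (Selenos, Dnajc3 and Ppp1r15a) and 2 as lower (Herpud1 and Ero1a), against 2.02% and 3.7% of all genes. Over single probe sets the shares called higher and lower were 0.425% and 0.963% with 6 arrays, and 1.54% and 2.44% without that array. At an unadjusted p under 0.05, 6 of the 38 were higher and 3 lower with 6 arrays, and 10 and 3 without CREB3L1 replicate 3. The 3 lower genes were Herpud1, Ero1a and Sil1 in both versions, and Sil1 was below background in both groups. Over all genes the shares at that threshold were 6.05% higher and 7.99% lower with 6 arrays, and 8.83% and 11.7% without CREB3L1 replicate 3. At that unadjusted threshold the share of lower genes was no larger than over all genes. By the adjusted p the lower calls, 1 and 2 of the 38, were slightly above the shares over all genes. All shares of genes given here are over 14217 genes, of which 6503 were below background in both groups. Among the 38 only 5 were, so these shares are not a like-for-like base.

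Of the 38 genes, 33 were above background in both groups and 5 were below it in both. Among the 33, the values of CREB3L1 replicates 1 and 2 lay above all untransfected arrays in 15 genes and below them in 3. Across 7714 genes above background those shares were 22.8% and 27.6%. With CREB3L1 replicate 3 included, the groups did not overlap in 8 of the 33 with CREB3L1 higher and in 2 with it lower, against 14.7% and 16.5%. The median difference of the 33 genes was -0.03 with 6 arrays and 0.13 without CREB3L1 replicate 3, and over all genes above background 0.01 and -0.01. Leaving out CREB3L1 replicate 3 turned the sign of the difference for 12 of the 38 genes.

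**Figure D1:**
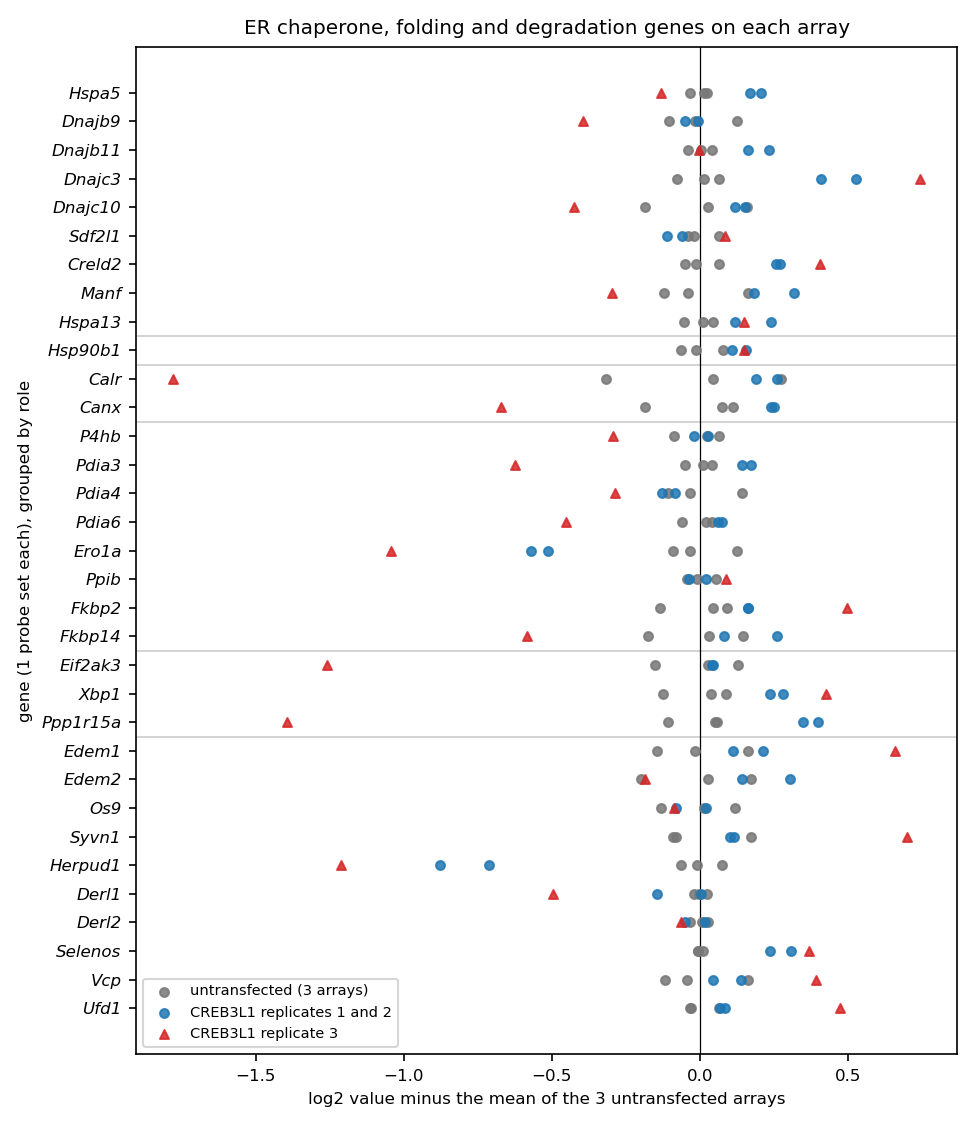
Each row is 1 of the 33 genes above background, and each point is 1 array's log2 value minus the mean of the 3 untransfected arrays (grey, untransfected; blue, CREB3L1 replicates 1 and 2; red triangles, CREB3L1 replicate 3). CREB3L1 replicate 3 was the lowest of all 6 arrays in 17 genes and the highest in 11, while CREB3L1 replicates 1 and 2 lay close together.

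CREB3L1 replicate 3 was below the other 5 arrays in 17 of the 33 genes and above them in 11. Over all genes above background it was the lowest array in 31.3% and the highest in 39.1%. The 17 low genes held Calr, Canx, Ppp1r15a, Eif2ak3, Pdia3, Pdia6 and Hspa5, and the 11 high genes held Edem1, Syvn1, Xbp1, Fkbp2 and Dnajc3.

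Of BiP and the genes that serve it, 9 were above background, and in 6 of these CREB3L1 replicates 1 and 2 were above all untransfected arrays, against 22.8% of all genes above background. In 1, Sdf2l1, they were below, against 27.6%. Hspa5, which encodes BiP, the main Hsp70 of the ER, measured 14.56, 14.50 and 14.55 on the untransfected arrays and 14.71, 14.74 and 14.40 on CREB3L1 replicates 1, 2 and 3. The first 2 CREB3L1 arrays were above every untransfected array and the remaining one below them all. The difference was 0.08 ± 0.10 (95% interval -0.16 to 0.33, adjusted p = 0.9998) with 6 arrays. Leaving out CREB3L1 replicate 3 gave 0.19 ± 0.04 (0.09 to 0.29, adjusted p = 0.0737), a 1.14-fold difference that did not pass the test.

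Dnajc3 encodes P58IPK, a J-domain partner of BiP that also restrains PERK. It measured 11.08, 10.94 and 11.03 in untransfected cells and 11.54, 11.43 and 11.76 in CREB3L1 cells. Every CREB3L1 array was above every untransfected array. The difference was 0.56 ± 0.10 (adjusted p = 0.0806), and without CREB3L1 replicate 3 it was 0.47 ± 0.06, a 1.38-fold rise that passed the test (adjusted p = 0.025). That call was lost when the 5 arrays were also centred on their medians (adjusted p = 0.0607).

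Creld2, an ER-stress-induced calcium-binding protein with isomerase activity, measured 11.31, 11.19 and 11.23 against 11.50, 11.52 and 11.65. The groups did not overlap. Its difference was 0.31 ± 0.06 (adjusted p = 0.101), and 0.26 ± 0.05 without CREB3L1 replicate 3 (adjusted p = 0.0537), so it did not pass the test either way. With array weights, which gave CREB3L1 replicate 3 little weight, it passed (0.29 ± 0.04, adjusted p = 0.0153). Hspa13, a further Hsp70 of the microsomes, had groups that did not overlap and a difference of 0.17 ± 0.05 (adjusted p = 0.275). Dnajb11, the co-chaperone ERdj3, gave 0.13 ± 0.07 with 6 arrays and 0.20 ± 0.04 without CREB3L1 replicate 3 (adjusted p = 0.754 and 0.101).

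The other partners of BiP above background did not separate the groups on all 6 arrays. Manf, a secreted stress-induced factor that binds BiP, gave 0.07 ± 0.18 and, without CREB3L1 replicate 3, 0.25 ± 0.10 (adjusted p = 0.34). Dnajc10, the disulfide reductase ERdj5, gave -0.05 ± 0.19 and 0.13 ± 0.10. Sdf2l1, which works with ERdj3, gave -0.03 ± 0.06 and -0.09 ± 0.05, and Dnajb9 (ERdj4) -0.15 ± 0.12 and -0.03 ± 0.07. Sil1 and Hyou1, the nucleotide exchange factors of BiP, lay below background in both groups and give no measure of their level.

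Hsp90b1 encodes GRP94, a chaperone of integrins and insulin-like growth factors. It measured 14.06, 14.01 and 14.16 against 14.19, 14.23 and 14.22, with all CREB3L1 arrays above all untransfected ones. This was a difference of 0.14 ± 0.05, which did not pass the test (adjusted p = 0.392), and CREB3L1 replicate 3 fell between the other CREB3L1 arrays.

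The lectin chaperones hold newly made glycoproteins while they fold. Calr, which encodes calreticulin, measured 12.45, 12.22 and 11.86 in untransfected cells and 12.37, 12.44 and 10.40 in CREB3L1 cells. The groups overlapped apart from CREB3L1 replicate 3, and the difference of -0.44 ± 0.60 became 0.23 ± 0.17 without it (adjusted p = 0.9998 and 0.82). Canx, which encodes calnexin, gave -0.06 ± 0.28 and 0.24 ± 0.10 on its representative probe set (adjusted p = 0.9998 and 0.355).

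Of 9 disulfide and proline isomerases and oxidases, 0 rose and only Ero1a fell, without CREB3L1 replicate 3, against 2.02% and 3.7% of all genes. With 6 arrays 0 passed limma's test in either direction, and 1 was lower at an unadjusted p under 0.05, against 7.99% of all genes. Ero1a encodes the enzyme that reoxidises protein disulfide isomerase and is also known as a hypoxia-induced gene. It measured 11.12, 11.34 and 11.18 in untransfected cells and 10.70, 10.64 and 10.17 in CREB3L1 cells. All CREB3L1 arrays were below all untransfected arrays. The difference was -0.71 ± 0.16 with 6 arrays (adjusted p = 0.161). Without CREB3L1 replicate 3 it fell by 0.54 ± 0.07, which is 1.46-fold (adjusted p = 0.0263). A second Ero1a probe set, whose CREB3L1 mean lay below background, gave -0.43 ± 0.10 (adjusted p = 0.183).

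P4hb, the classical protein disulfide isomerase, gave -0.10 ± 0.10 with 6 arrays and 0.00 ± 0.06 without CREB3L1 replicate 3, with a 95% interval of -0.14 to 0.15. Pdia4 (ERp72) gave -0.17 ± 0.09 and -0.11 ± 0.08, and Pdia6 (P5) -0.11 ± 0.15 and 0.07 ± 0.04. Ppib, the cyclophilin of the ER, gave 0.02 ± 0.05 and -0.01 ± 0.05. Of the FK506-binding proline isomerases, Fkbp2 gave 0.27 ± 0.12 and 0.16 ± 0.08, and Fkbp14 -0.08 ± 0.24 and 0.17 ± 0.11. Pdia3 (ERp57), the partner of calnexin and calreticulin, measured 15.01, 14.98 and 14.92 against 15.11, 15.14 and 14.34 on its representative, with CREB3L1 arrays on both sides of the untransfected ones. That was -0.10 ± 0.23 with 6 arrays and 0.16 ± 0.04 without CREB3L1 replicate 3. A second Pdia3 probe set measured 9.04, 9.05 and 9.04 against 9.27, 9.40 and 9.73 and did not overlap. It gave 0.43 ± 0.12 with 6 arrays (adjusted p = 0.275) and passed the test without CREB3L1 replicate 3 (0.30 ± 0.05, adjusted p = 0.0442). Ero1b was below background.

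**Figure D2:**
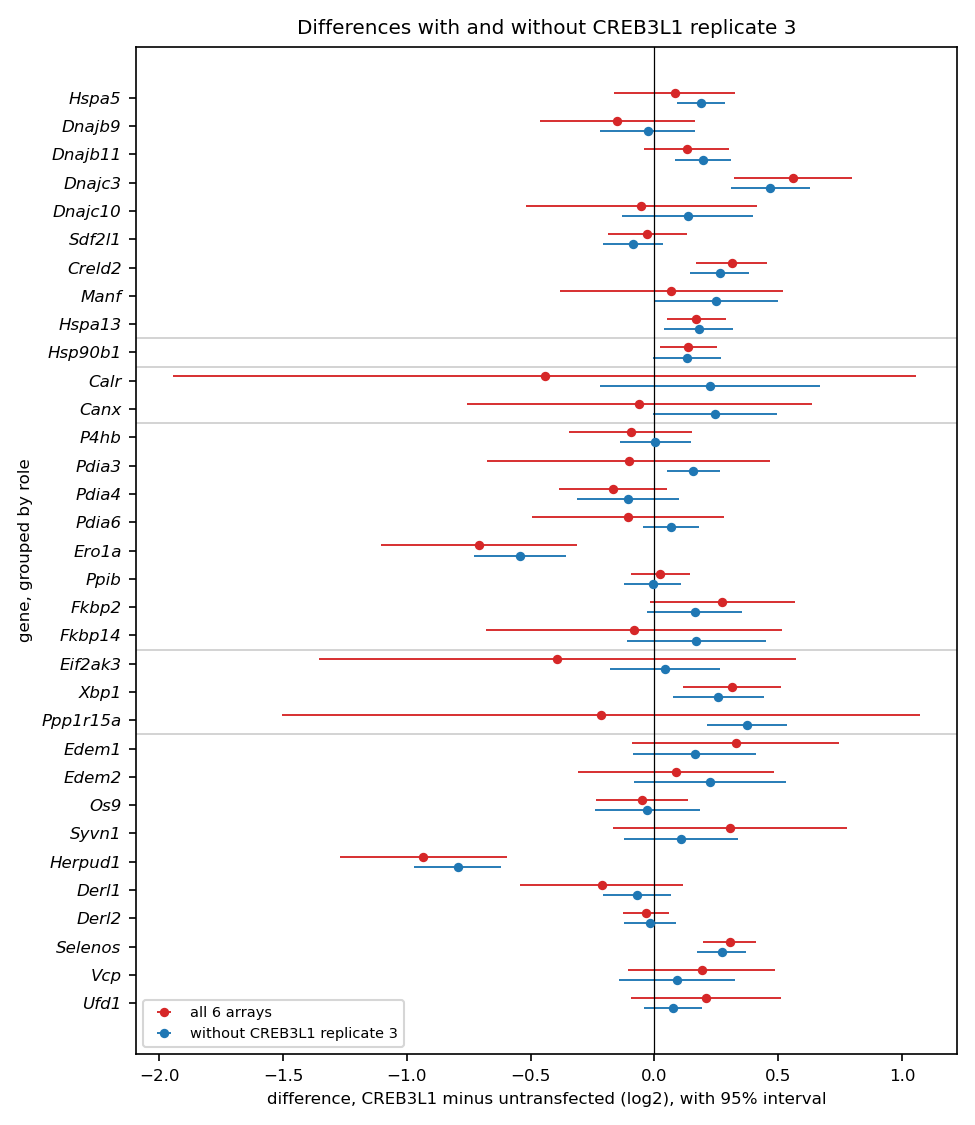
Difference of CREB3L1 minus untransfected (log2) for the 33 genes above background with its 95% interval for 1 gene, from all 6 arrays (red) and without CREB3L1 replicate 3 (blue). The intervals of Herpud1 and Ero1a lie to the left of 0 in both versions. Those of Dnajc3, Creld2, Selenos, Xbp1 and Hspa13 lie to the right in both. The Calr, Ppp1r15a and Eif2ak3 intervals are wide with 6 arrays.

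Among the stress sensors and their regulators, the RNA of Eif2ak3, Xbp1 and Ppp1r15a lay above background. The activity of the sensors was not measured. Xbp1 encodes the transcription factor whose mRNA IRE1 splices, and its splicing was not measured here. Xbp1 measured 11.50, 11.71 and 11.66 against 11.86, 11.90 and 12.05. The groups did not overlap, and the difference of 0.31 ± 0.08 did not pass the test (adjusted p = 0.213, and 0.168 without CREB3L1 replicate 3). Eif2ak3, which encodes PERK, measured 7.78, 7.95 and 8.06 against 7.97, 7.97 and 6.67. Only CREB3L1 replicate 3 lay outside the untransfected range, and the difference was -0.39 ± 0.38 with it and 0.04 ± 0.09 without it.

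Ppp1r15a encodes GADD34, which restores translation by directing a phosphatase to eIF2alpha. It measured 9.20, 9.20 and 9.04 in untransfected cells and 9.50, 9.54 and 7.75 in CREB3L1 cells. CREB3L1 replicates 1 and 2 were the highest arrays and replicate 3 the lowest by far. The difference of -0.22 ± 0.51 (adjusted p = 0.9998) turned to 0.37 ± 0.06 without CREB3L1 replicate 3 (1.30-fold, adjusted p = 0.0484). That call was lost with median centring of those 5 arrays (adjusted p = 0.13) or with quantile normalisation of them (adjusted p = 0.0704). Wfs1, the wolframin gene, lay below background.

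Herpud1 had the largest difference of the 38 genes. It encodes HERP, a short-lived membrane protein that scaffolds the HRD1 ubiquitin ligase complex and is usually induced by ER stress. It measured 11.15, 11.29 and 11.21 in untransfected cells and 10.34, 10.51 and 10.01 in CREB3L1 cells. All CREB3L1 arrays were well below all untransfected ones, and the difference did not rest on CREB3L1 replicate 3. Herpud1 fell by 0.93 ± 0.13 (1.91-fold, adjusted p = 0.049998), and by 0.80 ± 0.07 without that array (1.74-fold, adjusted p = 0.00837). With any other array left out the adjusted p was 0.0756 to 0.207, at differences of -1.04 to -0.90. The call with 6 arrays was also lost with array median centring, robust eBayes and no moderation (adjusted p = 0.0573, 0.0575 and 0.215).

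Selenos encodes a selenoprotein that links the derlins to the ATPase p97. It measured 12.11, 12.10 and 12.10 against 12.41, 12.34 and 12.47, with no overlap. Selenos rose by 0.30 ± 0.04 (1.23-fold, adjusted p = 0.0472), and by 0.27 ± 0.04 without CREB3L1 replicate 3 (adjusted p = 0.0297, or 0.0541 with those 5 arrays median centred). The call was lost in 5 other settings with all arrays, among them a mean-variance trend (adjusted p = 0.219), and when any other array was left out (adjusted p = 0.0782 to 0.212).

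**Figure D3:**
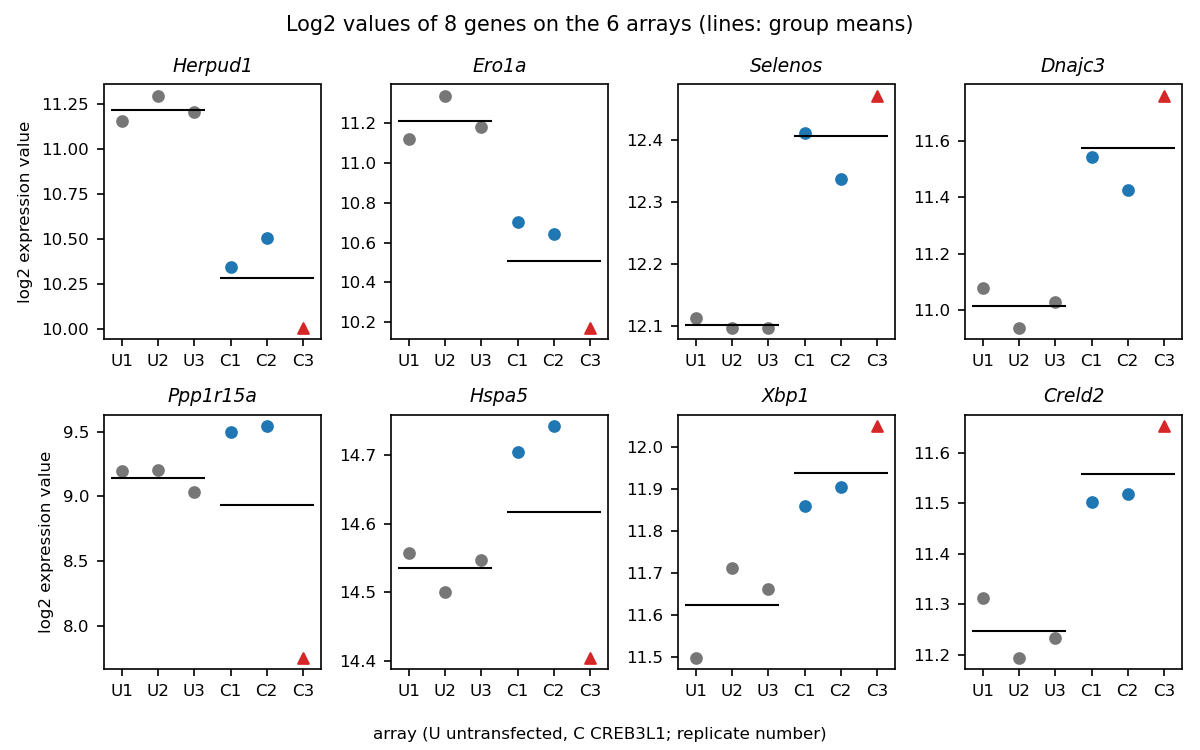
Log2 values of 8 genes on the 6 arrays (U untransfected, C CREB3L1, with replicate numbers; black lines are group means of 3 arrays, and each panel has its own axis). Herpud1 and Ero1a were lower and Selenos, Dnajc3, Xbp1 and Creld2 higher on all CREB3L1 arrays, while for Ppp1r15a and Hspa5 CREB3L1 replicate 3 (red triangle) lay below all other arrays.

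The other degradation genes above background did not pass the test. Syvn1, which encodes the ubiquitin ligase HRD1 itself, measured 10.46, 10.47 and 10.72 against 10.67, 10.65 and 11.25, with overlap. It gave 0.31 ± 0.19, and 0.11 ± 0.09 without CREB3L1 replicate 3. Edem1 and Edem2 belong to a family that trims mannose from misfolded glycoproteins. Edem1 measured 12.51, 12.64 and 12.82 against 12.77, 12.87 and 13.32, also with overlap, a difference of 0.33 ± 0.17, and Edem2 gave 0.09 ± 0.16. A second Edem1 probe set had no overlap and gave 0.51 ± 0.17 (adjusted p = 0.406), and the remaining one gave 0.02 ± 0.08. Os9, the lectin that receives them, gave -0.05 ± 0.07. The channel proteins Derl1 and Derl2 gave -0.21 ± 0.13 and -0.03 ± 0.04. The other Derl1 probe sets were positive with 6 arrays, at 0.18 ± 0.07 with groups that did not overlap (adjusted p = 0.473, and 0.0985 without CREB3L1 replicate 3) and at 0.08 ± 0.08. Vcp, which encodes p97, gave 0.19 ± 0.12, and its cofactor gene Ufd1 0.21 ± 0.12. On their representative probe sets the adjusted p of these 8 genes was 0.723 or higher with 6 arrays and 0.563 or higher without CREB3L1 replicate 3. Sel1l, the adaptor of HRD1, lay below background at 4.29 ± 0.04 and 4.42 ± 0.30.

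Where a gene had several probe sets, CREB3L1 replicate 3 often split them. Of 8 genes with more than 1 probe set above background, 6 (Canx, Derl1, Edem1, Fkbp2, Pdia3 and Ufd1) had that array as the highest of all 6 on at least 1 probe set and the lowest on another. The same count was not made over all genes. On representative probe sets that array was the lowest in 31.3% and the highest in 39.1% of all genes above background. For Canx a minor probe set read 9.78, 9.98 and 8.76 in untransfected cells and 10.12, 10.36 and 5.91 in CREB3L1 cells. Another read 12.93, 12.94 and 13.03 against 13.05, 13.09 and 13.36. For Ufd1 the second probe set read 8.24 on CREB3L1 replicate 3 and 9.96 to 10.55 on the other arrays, while the representative was highest there. Without that array all 3 Canx probe sets gave positive differences (0.74, 0.10 and 0.24), as did both of Pdia3 and both of Ufd1. Those of Edem1 and Fkbp2 were also all positive. The Derl1 probe sets still differed in sign, at -0.07 on the representative and 0.24 and -0.01 on the others.

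Untransfected replicate 3 leaned the same way on several of these probe sets, with 8.76 for the minor Canx probe set, 9.96 for the second Ufd1 probe set and 11.86 for Calr as the lowest of their group. On 32 of 45 probe sets above background (71.1%), untransfected replicate 3 and CREB3L1 replicate 3 departed from their group's other arrays in the same direction. Over all genes above background the share was 70.4%. With both arrays left out, 24 of the 33 genes had positive differences, as many as without CREB3L1 replicate 3 alone. Over all 7714 genes above background, 49.8% were positive with both arrays left out. Dnajc3, Ppp1r15a, Herpud1 and Ero1a then passed the test, while Selenos did not (adjusted p = 0.0651). Of the 31042 probe sets tested, 539 were called higher and 810 lower with both arrays left out.

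**Figure D4:**
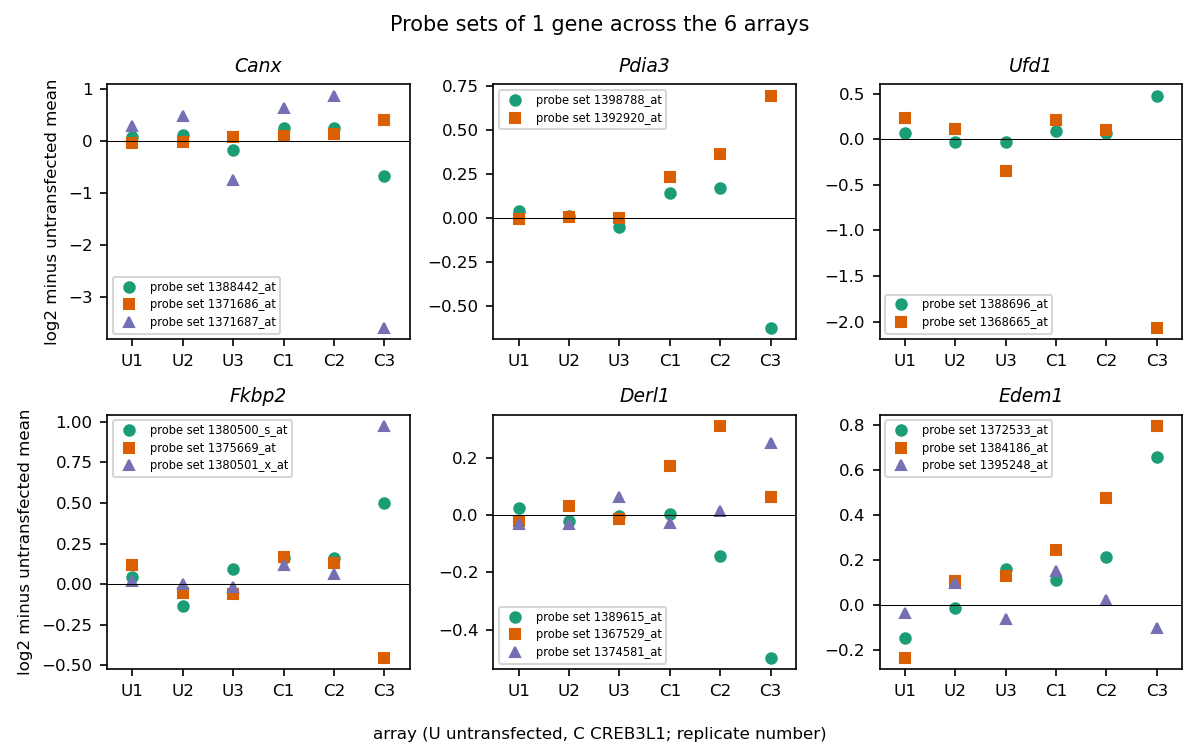
Log2 values of the probe sets above background of 6 genes, each minus its own mean over the untransfected arrays, on the 6 arrays (U untransfected, C CREB3L1). On CREB3L1 replicate 3 (C3) the probe sets of 1 gene went apart, as for Ufd1 and Canx, whereas on CREB3L1 replicates 1 and 2 they stayed within 1 log2 unit of 0.

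The genes with an ER stress response element in the promoter can be set beside those without. Of 9 such genes above background, 8 had a positive difference without CREB3L1 replicate 3, Herpud1 being the exception, and in 7 both remaining CREB3L1 arrays were above all untransfected arrays. Among 18 genes with a promoter window and no element, 13 were positive and 5 separated in this way. Over all genes above background 47.8% were positive and 22.8% separated upward. With 6 arrays Calr and Canx were also negative (-0.44 and -0.06). Upward separation then held for Creld2, Dnajc3, Hsp90b1 and Xbp1 with an element, and for Hspa13, Fkbp2, Selenos and Ufd1 without. The shares over all genes above background were then 51.1% positive and 14.7% separated upward. The medians of the genes with and without an element were 0.23 and 0.10 without CREB3L1 replicate 3, and 0.13 and -0.00 with 6 arrays. The variant element, which placed Dnajb11 and Herpud1 among the genes with an element, was added after the data were seen. These counts describe the genes and were not tested.

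Other genes of the same processes were taken from lists by function, which were chosen with earlier results of these data known. Among 35 measured further folding enzymes and chaperones of the ER, 2 rose and 1 fell with 6 arrays, against 0.577% and 1.52% of all genes. Mlec, which encodes the glucose-binding lectin malectin, rose by 1.31 ± 0.11 (adjusted p = 0.00947), and Gpx8, an ER peroxidase, by 0.78 ± 0.07 (adjusted p = 0.0105). Prdx4, the ER peroxiredoxin that, like Ero1a, oxidises protein disulfide isomerase, fell by 0.64 ± 0.07 (adjusted p = 0.0227). In the version without CREB3L1 replicate 3, 3 rose and 2 fell, against 2.02% and 3.7% of all genes. Of 42 further degradation genes 0 passed limma's test with or without that array, while at an unadjusted p under 0.05 6 were higher and 5 lower with 6 arrays, against 6.05% and 7.99% of all genes. Rhbdd1, a rhomboid protease, and the ubiquitin ligase gene Marchf6 had the smallest p, at -0.47 ± 0.07 and -0.19 ± 0.04 (adjusted p = 0.0598 and 0.107).

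PERK signals through the transcription factor ATF4, and the RNA of genes listed for that arm was measured apart from the chaperones. The activity of PERK itself was not measured. Of 20 measured genes of the PERK-ATF4 arm 2 fell and 0 rose with 6 arrays, and 9 fell and 0 rose without CREB3L1 replicate 3. The shares lower and higher over all genes were 1.52% and 0.577% with 6 arrays, and 3.7% and 2.02% without that array. Ppp1r15a, whose product acts on eIF2alpha, was counted among the sensors and is not in this list. Without CREB3L1 replicate 3 it was higher (0.37 ± 0.06, adjusted p = 0.0484), and with 6 arrays it gave -0.22 ± 0.51. Slc7a11, the cystine transporter, measured 10.16, 10.17 and 10.29 against 8.80, 8.97 and 8.89. Chac1, which breaks down glutathione, measured 10.83 ± 0.18 against 9.63 ± 0.04. The groups did not overlap in either gene, with falls of 1.32 ± 0.06 and 1.19 ± 0.10 (adjusted p = 0.00191 and 0.00884). The median of the 19 genes above background was -0.47 without CREB3L1 replicate 3, against 0.13 for the 33 chaperone and degradation genes. Both lists were chosen with earlier results of these data known, so these counts and medians describe the lists and test nothing.

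Among 19 measured genes of the ER calcium store 0 passed limma's test in either version, and at an unadjusted p under 0.05 3 were higher and 1 lower with 6 arrays, against the same 6.05% and 7.99%. Stim1, the calcium sensor of the ER membrane, and Atp2a2, the calcium pump SERCA2, had the smallest p (0.23 ± 0.06 and 0.22 ± 0.06, adjusted p = 0.225 and 0.227). Chaperones outside the ER were measured for comparison. Of 36 cytosolic and mitochondrial chaperone genes 1 rose and 1 fell with 6 arrays, against 0.577% and 1.52% of all genes. Cct6a of the CCT ring rose by 0.29 ± 0.04 (adjusted p = 0.0415). Cryab, a small heat shock protein, fell to a level below background (adjusted p = 0.0366). Without CREB3L1 replicate 3 both CREB3L1 arrays were above all untransfected arrays in 16 of the 31 above background, or 51.6%, beside 45.5% of the 33 ER genes and 22.8% of all genes above background. The difference between the lists was not tested.

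**Figure D5:**
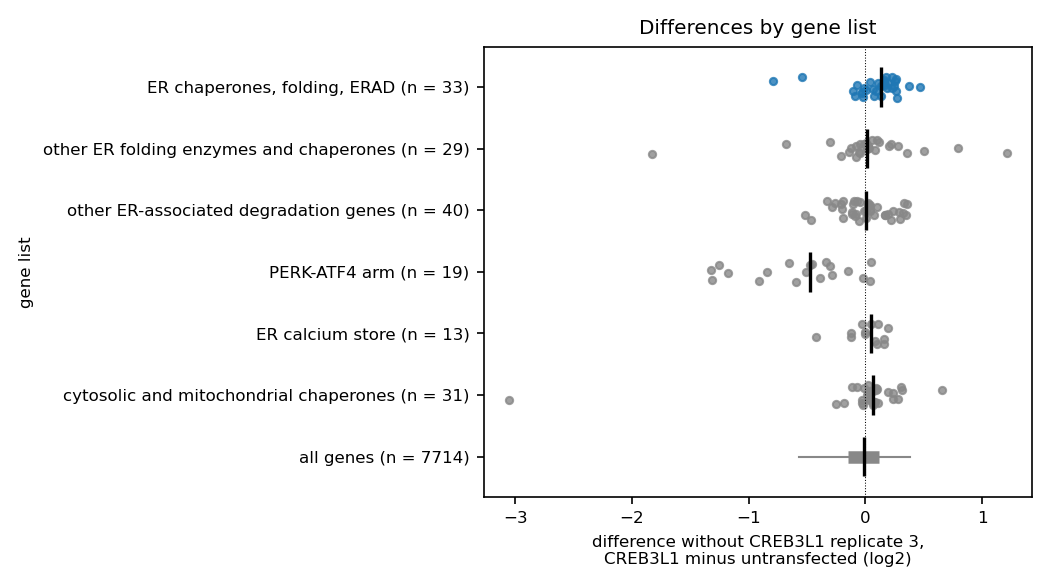
Differences without CREB3L1 replicate 3 (log2) for genes above background, 1 point per gene, by list, with the median as a black bar; for all genes the thick bar spans the quartiles (-0.15 to 0.12) and the thin line a wider range, from -0.57 to 0.38. The median of the 33 ER genes was 0.13, that of the PERK-ATF4 arm -0.47 and that of all genes -0.01. The lists were chosen with earlier results of these data known.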

How the data were processed

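The deposited table holds log2 expression values. Per the submitters' processing notes, the tools were Partek 6.6 and RMA. The base of the logarithm, left unstated, was taken as 2 from the range of values (0.27 to 16.9). Of 31099 probe sets, 57 controls were set aside. Symbols came from GEO's platform annotation, checked against RefSeq genes of GRCr8 (0 changed). Groups came from the label on transfection. The labels do not mention separate cultures. The p-values therefore measure only the spread between these samples, which may be technical. No array pair shared more than 10 identical values. The precision is limited by 3 arrays per group.

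The comparison used limma 3.58.1 (eBayes, two-sided, adjusted p below 0.05, R 4.3.3) and was tested on simulated data. Members and lists were chosen with earlier results of these data known. Every member is named. Per-array values are given for those past the test with or without CREB3L1 replicate 3, the 5 highest and 5 lowest differences above background, genes whose probe sets disagree, and the main chaperones and sensors. From other lists, up to 4 genes past the test are named, or the 2 with the smallest p. The variant element was added after the data were seen. Of genes with several promoter windows the first was used. Alternatives were other normalisations and moderations, array weights, a filter on dim probe sets, averaged probe sets and leaving out each array.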

Additional observations from a re-analysis of the deposited data

How the results depend on the processing

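All 6 arrays gave 132 higher and 299 lower probe sets. The higher count was 79 with a mean-variance trend, 9 without moderation and 600 with array weights, and the lower count was 65 without moderation and 952 with array weights. Leaving out 1 array gave 28 to 479 higher and 116 to 756 lower. Among the 38 genes, 1 was higher and 1 lower. The higher count was 0 with quantile normalisation, array median centring, dim probe sets left out, a mean-variance trend or no moderation, and 3 with array weights. The lower count was 0 with median centring, robust eBayes or no moderation, and 3 with array weights. Of those 3, only Ero1a and Herpud1 were above background. Leaving out 1 array gave 0 to 3 higher and 0 to 2 lower.

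Combined settings were added after the data were seen. Without CREB3L1 replicate 3, median centring gave 286 higher and 544 lower probe sets, and 0 higher and 2 lower genes. Quantile normalisation of the same 5 arrays gave 406, 516, 2 and 2. Without both replicates 3 the counts were 539, 810, 2 and 2.

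Differences changed sign as follows. With array weights they were 0.10 for Dnajc10, -0.036 for Hyou1, 0.21 for Calr, 0.21 for Canx, 0.14 for Pdia3, 0.055 for Pdia6, -0.0043 for Ppib, 0.12 for Fkbp14, 0.32 for Ppp1r15a, -0.022 for Wfs1 and 0.023 for Os9. With quantile normalisation the difference was 0.039 for Os9, and with the probe sets of a gene averaged it was 0.16 for Pdia3, 0.016 for Derl1 and -0.19 for Ufd1. Median centring without CREB3L1 replicate 3 gave 0.14 for Dnajc10, -0.067 for Hyou1, 0.23 for Calr, 0.25 for Canx, 0.0065 for P4hb, 0.16 for Pdia3, 0.070 for Pdia6, -0.0051 for Ppib, 0.17 for Fkbp14, 0.046 for Eif2ak3, 0.38 for Ppp1r15a and -0.012 for Wfs1. Quantile normalisation of those 5 arrays gave 0.12 for Dnajc10, -0.073 for Hyou1, 0.21 for Calr, 0.21 for Canx, 0.16 for Pdia3, 0.051 for Pdia6, -0.011 for Ppib, 0.21 for Fkbp14, 0.10 for Eif2ak3, 0.40 for Ppp1r15a, -0.010 for Wfs1 and 0.024 for Os9. With 1 array, or both replicates 3, left out the values ranged from -0.16 to 0.13 for Dnajc10, -0.070 to 0.44 for Hyou1, -0.097 to 0.012 for Sdf2l1, -0.058 to 0.25 for Manf, -0.79 to 0.23 for Calr, -0.22 to 0.24 for Canx, -0.16 to 0.036 for P4hb and -0.24 to 0.16 for Pdia3. They ranged from -0.20 to 0.068 for Pdia6, -0.014 to 0.055 for Ppib, -0.25 to 0.17 for Fkbp14, -0.61 to 0.11 for Eif2ak3, -0.52 to 0.37 for Ppp1r15a, -0.014 to 0.034 for Wfs1, -0.022 to 0.24 for Edem2, -0.11 to 0.010 for Os9 and -0.035 to 0.25 for Sel1l. The cause was not tested.

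Leaving out CREB3L1 replicate 3 turned 12 signs, and leaving out any other array at most 3. No paired analysis was possible because no replicate number in the labels links an untransfected sample to a CREB3L1 sample. The number of arrays limits all of these results, and probe sets below background give no level.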
